A study of Mus musculus with 6 samples.

Results

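Oxidative phosphorylation genes were followed in RNA sequencing of the mouse cerebral cortex at postnatal day 8. The genes were chosen by name: the mitochondrial-encoded mt-Nd, mt-Co, mt-Atp and mt-Cytb genes, and the nuclear genes named Nduf with a letter a, b, c, s or v and a number, Sdha to Sdhd, Uqcr, Cox4 to Cox8 and Atp5. Names marked as pseudogenes were left out. The rule named 97 of the 34745 genes in the deposited table, and 94 of them had at least 0.5 FPKM (fragments scaled by transcript length and library depth) in at least 3 of the 6 libraries. These 94 were 13 mitochondrial and 81 nuclear genes. Cox8c was listed at 0 in every library, and Cox8b and Cox7b2 did not reach the minimum, so these 3 were not tested. The 3 control libraries came from Pen-2 F/F mice, in which both alleles of the gene for PEN-2 carry loxP sites. The 3 Pen-2 cKO libraries came from Pen-2 F/F mice with hGFAP-Cre, a transgene that expresses Cre recombinase from a human GFAP promoter. Cre was present in the cKO mice only, so the deletion and the presence of the transgene cannot be told apart. The sample titles do not state that each library came from a separate animal, so p-values cover only the variation among these samples, which may be technical.

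The respiratory chain moves electrons from NADH and succinate to oxygen through complexes I to IV of the inner mitochondrial membrane, and complex V, the ATP synthase, uses the proton gradient so made to produce ATP. Complexes I, III, IV and V are built from subunits of both genomes, while all subunits of complex II are nuclear-encoded. Mitochondrial DNA is transcribed as long precursors that are cut at transfer RNAs, except at a few junctions such as that of Atp8, Atp6 and Co3, where the reading frames share bases. PEN-2 is encoded by Psenen and belongs to the γ-secretase complex, which cuts Notch receptors within the membrane.

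The sequences below show where the finding with the largest change lies. The first is the whole mt-Atp8 gene, the next the first 150 bases of mt-Atp6, and the last the matching bases of Gm10925, an annotated pseudogene on chromosome 1. All are read 5′ to 3′ on the strand of the gene from the GRCm38 (mm10) genome. Capitals mark the 43 bases that mt-Atp8 and mt-Atp6 share.
mt-Atp8, chrM:7766-7969 (+): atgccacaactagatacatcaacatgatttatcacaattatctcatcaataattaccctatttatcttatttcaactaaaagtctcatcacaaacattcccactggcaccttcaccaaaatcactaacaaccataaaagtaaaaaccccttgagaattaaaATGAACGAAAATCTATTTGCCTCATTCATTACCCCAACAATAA
mt-Atp6, chrM:7927-8076 (+): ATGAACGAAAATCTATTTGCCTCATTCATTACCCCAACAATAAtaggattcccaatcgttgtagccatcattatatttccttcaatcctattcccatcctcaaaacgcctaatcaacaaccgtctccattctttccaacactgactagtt
Gm10925, chr1:24614502-24614651 (-): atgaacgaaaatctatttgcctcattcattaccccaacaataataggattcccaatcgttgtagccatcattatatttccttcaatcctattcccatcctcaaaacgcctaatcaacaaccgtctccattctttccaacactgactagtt
The Gm10925 bases have no difference from those of mt-Atp6 here. Over its whole length Gm10925 (chr1:24613974-24614651) is identical to mt-Atp6 (chrM:7927-8607) at 678 of 678 bases, which cover 99.6% of the mitochondrial gene. Fragments from either place therefore cannot be assigned by sequence, and how the authors' counting divided them is not given in the sources used here.

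Psenen, the targeted gene, was listed at 6.35, 6.86 and 7.32 FPKM in the control and 3.56, 3.90 and 4.03 FPKM in the cKO libraries. The groups did not overlap, and the log2 difference was -0.82 (SE 0.09, limma adjusted p = 0.00441). Depth implied by the smallest FPKM steps was 20251900 to 24872600 fragments in the controls and 25123100 to 26809300 in the cKO libraries, so each cKO library was deeper than each control, and the part of depth in any result was not tested. In the limma fit over 14147 genes, 783 genes (5.53%) had an adjusted p under 0.05, the threshold for a call, 519 of them (3.67%) higher and 264 (1.87%) lower in Pen-2 cKO. The split followed the scaling of the libraries, with 312 higher and 346 lower under median-ratio scaling, 326 and 307 with upper quartiles made equal, 909 and 244 with equal library sums, and 322 and 377 after correcting for length and GC. Leaving out a library moved the number called to 311 without control 1, 220 without control 2, 321 without cKO 1 and 312 without cKO 2. Neuron markers, which define the cortex, summed to 1934 to 1953 FPKM in the controls and 1608 to 1730 FPKM in the cKO libraries, with 1 of 10 called higher (Gad1), 1 lower (Tubb3) and a median log2 difference of -0.07. Tubb3 alone went from a mean of 1404 to 1141 FPKM, which is most of the fall in the sum. Of the 10 astrocyte markers 8 were lower (summed level 447 to 543 against 145 to 207 FPKM), and of the 12 oligodendrocyte lineage markers 10 were higher (112 to 147 against 314 to 404 FPKM). The summed levels were also higher, without overlap, for cell cycle markers (11.1 to 11.8 against 25.4 to 28.3 FPKM, 5 of 6 called higher) and meningeal fibroblast markers (28.2 to 43.3 against 59.8 to 95.7 FPKM, 3 of 7). The same held for microglia (62.5 to 74.3 against 91.1 to 153 FPKM, 1 of 7) and endothelial markers (83.0 to 93.7 against 95.3 to 120 FPKM, 1 of 7). It also held for interneuron markers (387 to 457 against 591 to 690 FPKM, 1 of 5), mostly Sst. Within these lists some markers went the other way. Vip was lower without overlap but not called (log2 difference -0.37). P2ry12 of the microglia and Slco1a4 of the endothelial markers had log2 differences of -0.34 and -0.09, both with overlap. Choroid plexus and ependyma markers were higher too (50.2 to 199 against 204 to 922 FPKM, 0 of 6), mostly through Ttr. In that list Tmem212 and Ccdc153 had negative log2 differences (-1.11 and -0.68) and Foxj1 a positive one (0.51). In bulk tissue, fewer cells of a type and less RNA per cell cannot be told apart, and the part of these cell markers in the results below was not tested.

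All mitochondrial genes that were called were lower in the Pen-2 cKO cortex, and the nuclear genes of the same complexes were not called in either direction. Of the 13 mitochondrial genes, 4 were called lower in the limma fit, against 1.87% of all tested genes, and none higher: mt-Atp6, mt-Atp8, mt-Nd1 and mt-Nd5. Of the 81 nuclear genes, limma called 0, with 7 at an unadjusted p under 0.05 (8.64%, against 22.9% of all tested genes). The median log2 difference was -0.19 for the mitochondrial and 0.04 for the nuclear genes, beside 0.07 for all tested genes; the nuclear median turned negative under median-ratio (-0.032) and upper-quartile scaling (-0.015) and with a length and GC correction (-0.037). The mitochondrial set had 12 negative differences of 13. The nuclear set had 56 positive and 25 negative, beside 63.6% positive over all tested genes. Of the 81 nuclear genes, 72 (88.9%) lay within 0.2 of 0, as did 61.6% of all tested genes. All 3 cKO libraries lay below all 3 controls for 7 mitochondrial and 3 nuclear genes (8.17% of all tested genes did so), and above them for 0 mitochondrial and 8 nuclear genes (21.5% of all tested genes).

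**Figure D1:**
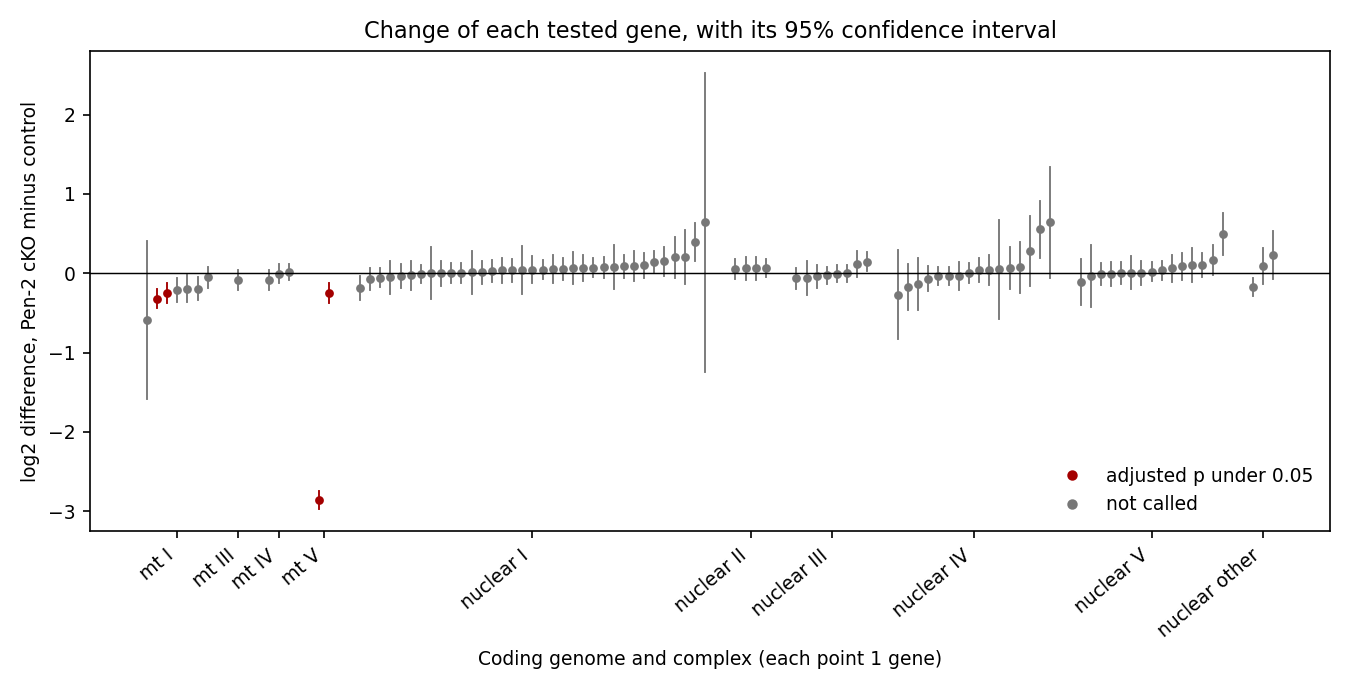
Log2 difference (Pen-2 cKO minus control, log2(FPKM + 0.1) scale) of the 94 tested genes, grouped by coding genome and complex and sorted within each group, with 95% confidence intervals from limma. The 4 called genes are all mitochondrial and lower, with mt-Atp6 at -2.86, while most nuclear genes lie within 0.2 of 0.

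Complex V held the largest difference. mt-Atp6 (ENSMUSG00000064357) encodes subunit a, which forms the proton path of the ATP synthase. Its level was 8524, 9090 and 9484 FPKM in the controls and 1223, 1254 and 1251 FPKM in the cKO libraries. The groups stood far apart and each was tight, with means of 9033 ± 482 and 1243 ± 17.3 FPKM (SD, n = 3 each). The level was 7.27-fold lower in Pen-2 cKO, a log2 difference of -2.86 (SE 0.05, limma adjusted p = 6.38e-07), which was rank 1 by p among the 14147 genes and rank 2 by size of fall. The FPKM, the length and the implied depth correspond to 125365 to 160645 fragments in the controls and 20918 to 22834 in the cKO libraries, so counting error is small beside the difference. The call held in 19 of 19 alternative fits, with log2 differences between -2.93 and -2.81.

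The genes on both sides of mt-Atp6 differed much less. mt-Atp8, which encodes a small membrane subunit of the same enzyme and ends inside mt-Atp6, was at 10898, 11533 and 12149 FPKM in the controls and 10099, 9439 and 9508 FPKM in the cKO libraries. Every cKO library was below every control, with a log2 difference of -0.25 (SE 0.05, limma adjusted p = 0.0413). That call held in 9 of 19 alternatives, where the log2 difference ran from -0.32 to -0.11 and the limma adjusted p from 0.0218 to 0.625. With the length and GC correction the log2 difference was -0.11 (limma adjusted p = 0.625), and the call was also lost without control 2, control 3 or any single cKO library. mt-Co3, whose first base is the last base of mt-Atp6, was at 6915, 7070 and 7453 FPKM in the controls and 7037, 7234 and 7398 FPKM in the cKO libraries. These ranges overlapped, and the log2 difference was 0.02 (95% confidence interval -0.09 to 0.12). Within each library the ratio of mt-Atp6 to mt-Atp8 was 0.782, 0.788 and 0.781 in the controls and 0.121, 0.133 and 0.132 in the cKO libraries, a comparison that no scaling of libraries can move. Because the 2 genes share bases, fragments over the junction could be counted for either.

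**Figure D2:**
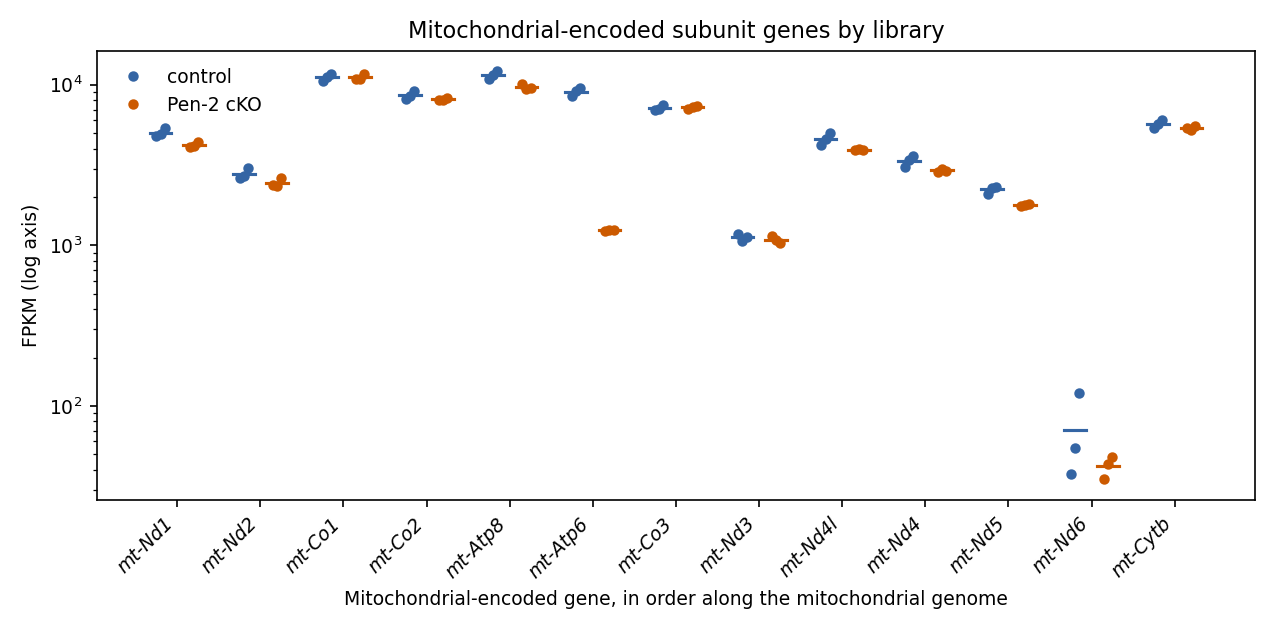
FPKM (log axis) of the 13 mitochondrial-encoded genes in each library, in order along the mitochondrial genome, with control and Pen-2 cKO libraries as points and group means as bars. mt-Atp6 falls from 9033 to 1243 FPKM between its neighbours mt-Atp8 and mt-Co3, whose group means differ far less.

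The pseudogene Gm10925 did not follow mt-Atp6 in size. It was listed at 959.5, 1023 and 1075 FPKM in the controls and 834.5, 880.1 and 874.4 FPKM in the cKO libraries, a log2 difference of -0.24 (SE 0.05, limma adjusted p = 0.0497), a call that held in 6 of 19 alternatives. The ratio of mt-Atp6 to Gm10925 was 8.88, 8.88 and 8.82 in the controls and 1.47, 1.43 and 1.43 in the cKO libraries. Chromosome 1 holds copies of 6 other mitochondrial genes beside Gm10925, all annotated as unprocessed pseudogenes. The ratio of mt-Co3 to Gm28437, identical at 783 of 783 bases, averaged 9.62 in the controls and 9.76 in the cKO libraries. mt-Co2 to Gm28661, identical at 681 of 681 bases, averaged 9.12 and 9.09, and mt-Nd4l to Gm10222, identical at 294 of 294 bases, averaged 9.24 and 9.12. For copies that differ or cover less of the gene, the ratios were 9.63 and 9.28 for mt-Nd3 to Gm28438, 10.8 and 11.6 for mt-Nd4 to Gm28439, and 18.4 and 15.7 for mt-Co1 to Gm29216. The mt-Atp6 pair had a ratio close to those of the other fully identical pairs in the controls only. Summed, mt-Atp6 and Gm10925 averaged 10052 FPKM in the controls and 2106 FPKM in the cKO libraries, without overlap. The mean of mt-Atp6 was lower by 7790 FPKM, and the largest rise in the mean of any gene was 356 FPKM (Ttr). The part of read assignment in the mt-Atp6 difference was not tested.

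**Figure D3:**
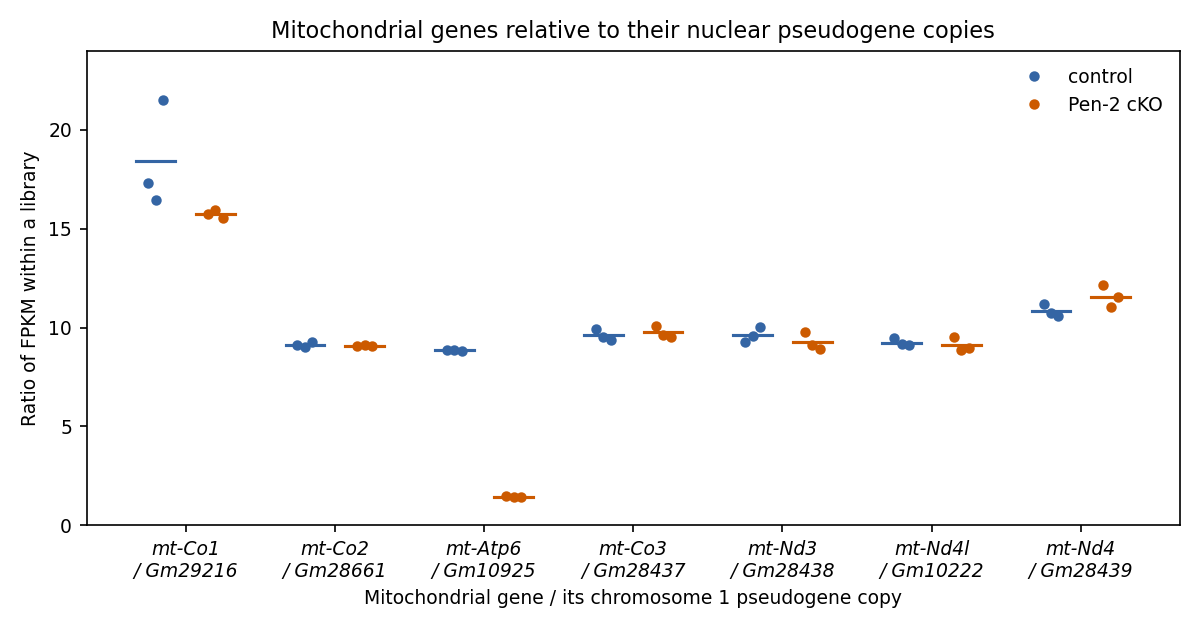
Ratio of the FPKM of 7 mitochondrial genes to that of their pseudogene copies on chromosome 1, in each control and Pen-2 cKO library (points) with group means (bars), in the order of the mitochondrial genome. The mt-Atp6 to Gm10925 ratio falls from 8.86 to 1.44, and the group means of the other 6 pairs differ by at most 2.68.

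Of the 7 mitochondrial complex I genes, which encode the membrane arm that pumps protons, limma called 2 lower, against 1.87% of all tested genes. mt-Nd5 was at 2093, 2287 and 2321 FPKM in the controls and 1757, 1788 and 1810 FPKM in the cKO libraries. The groups did not overlap, and the log2 difference was -0.32 (SE 0.05, limma adjusted p = 0.0158). This call held in 15 of 19 alternatives, with limma adjusted p from 0.00509 to 0.0751. It was lost without control 2, cKO 1 or cKO 2, and in the fit without the mean-variance trend. mt-Nd1 was at 4801, 4924 and 5346 FPKM in the controls and 4118, 4164 and 4411 FPKM in the cKO libraries, also without overlap, with a log2 difference of -0.25 (SE 0.05, limma adjusted p = 0.0462). The mt-Nd1 call held in 7 of 19 alternatives and was lost when any single library was left out.

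mt-Nd2, mt-Nd4 and mt-Nd4l also had every cKO library below every control, but were not called. Their log2 differences were -0.19, -0.19 and -0.21, with limma adjusted p values of 0.166, 0.127 and 0.110. mt-Nd4l runs into mt-Nd4 along the genome, so their fragments are in part shared. mt-Nd3 overlapped between the groups, at 1178, 1066 and 1128 FPKM in the controls and 1149, 1072 and 1031 FPKM in the cKO libraries. mt-Nd6 is the only one of the 13 genes encoded on the opposite strand, and its end overlaps that of mt-Nd5. It was the lowest of the 13, at 37.9, 54.6 and 121 FPKM in the controls and 34.9, 43.6 and 47.9 FPKM in the cKO libraries. The high value came from control 3 alone, and the log2 difference of -0.59 had an SE of 0.41. Whether the counting used strand is not given in the sources used here, so reads of mt-Nd6 and mt-Nd5 over the shared bases cannot be told apart.

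The mitochondrial genes of complexes III and IV were not called. mt-Cytb, the cytochrome b of complex III, was at 5373, 5709 and 6047 FPKM in the controls and 5376, 5243 and 5548 FPKM in the cKO libraries, which overlap. mt-Co1 encodes the catalytic subunit of cytochrome c oxidase and was at 10586, 11140 and 11697 FPKM against 10781, 10912 and 11646 FPKM. Its 95% confidence interval on the log2 scale was -0.13 to 0.12. mt-Co2, which takes electrons from cytochrome c, averaged 8607 ± 509 FPKM in the controls and 8107 ± 179 FPKM in the cKO libraries (SD, n = 3 each), with a log2 difference of -0.08 (95% confidence interval -0.21 to 0.04).

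Unequal change within the mitochondrial genome could be read without any scaling. The ratio of mt-Nd5 to mt-Co1 was 0.198, 0.205 and 0.198 in the controls and 0.163, 0.164 and 0.155 in the cKO libraries. The ratio of mt-Nd1 to mt-Co1 was 0.453, 0.442 and 0.457 in the controls and 0.382, 0.382 and 0.379 in the cKO libraries. Neither ratio overlapped between the groups, so these 2 complex I messages were lower relative to mt-Co1 in each cKO library. These pairs were chosen after their values were seen, and the ratios are a description.

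Nuclear complex I genes encode the NADH-binding and iron-sulfur modules and the supernumerary subunits around the core. Of the 35 tested, limma called 0, and the median log2 difference was 0.05. At an unadjusted p under 0.05 there were 3, against 22.9% of all tested genes. The most abundant, Ndufb9, a supernumerary subunit, averaged 160 ± 12.5 FPKM in the controls and 158 ± 11.6 FPKM in the cKO libraries (SD, n = 3 each). Ndufs1, which carries iron-sulfur clusters of the NADH arm, was at 12.7, 12.9 and 12.1 FPKM against 12.4, 11.7 and 12.7 FPKM, and Ndufv1, the subunit that binds NADH, was at 12.1, 13.0 and 12.5 FPKM against 13.4, 13.0 and 13.4 FPKM. Both differences were smaller than 0.1 on the log2 scale.

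Ndufa3 and Ndufa8 were among the nuclear complex I genes at an unadjusted p under 0.05. Ndufa3, a supernumerary subunit, was at 12.7, 12.4 and 13.8 FPKM in the controls and 18.4, 14.6 and 18.6 FPKM in the cKO libraries, without overlap (log2 difference 0.39, SE 0.10, limma adjusted p = 0.0765, called in 2 of 19 alternatives). Ndufa8 had a log2 difference of 0.15 (limma adjusted p = 0.186). Ndufs5 had the largest log2 difference of the complex, 0.64, but with an SE of 0.77. Its values ranged from 4.54 FPKM in control 2 to 37.8 FPKM in control 3, and the cKO values of 34.6, 20.4 and 19.5 FPKM lay within that range.

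Complex II, succinate dehydrogenase, joins the respiratory chain to the citric acid cycle. Sdha, the flavoprotein that oxidises succinate, averaged 48.9 ± 2.05 FPKM in the controls and 50.9 ± 1.69 FPKM in the cKO libraries, and Sdhb, the iron-sulfur subunit, averaged 48.1 ± 1.69 and 50.2 ± 3.01 FPKM (SD, n = 3 each). The membrane anchors Sdhc and Sdhd averaged 23.7 and 113 FPKM in the controls and 24.7 and 119 FPKM in the cKO libraries. All 4 log2 differences lay between 0.06 and 0.07, next to the median of 0.07 over all tested genes, and all 4 genes overlapped between the groups. Limma called 0 of the 4, with 0 at an unadjusted p under 0.05 (against 22.9% of all tested genes).

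In complex III, which passes electrons from ubiquinol to cytochrome c, limma called 0 of 8 nuclear genes. At an unadjusted p under 0.05 there was 1, against 22.9% of all tested genes. Uqcrfs1, the Rieske iron-sulfur protein, averaged 101 ± 2.37 FPKM in the controls and 99.7 ± 2.55 FPKM in the cKO libraries (SD, n = 3 each). Uqcrh, the hinge protein that helps cytochrome c dock, was at 44.7, 44.1 and 47.0 FPKM in the controls and 48.1, 51.0 and 51.0 FPKM in the cKO libraries, without overlap (log2 difference 0.14, limma adjusted p = 0.153). The median of the 8 genes was -0.02.

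Complex IV has subunits with alternative isoforms that differ between tissues. The isoforms that are widespread in the body were the abundant ones. Cox4i1 averaged 138 FPKM in the controls against 0.646 FPKM for Cox4i2, the form linked to low oxygen. Cox6a1 averaged 281 FPKM in the controls against 5.48 FPKM for Cox6a2, the form of striated muscle. Cox6b1 averaged 395 FPKM against 0.538 FPKM for the testis form Cox6b2, and Cox7a2 averaged 151 FPKM against 1.48 FPKM for the muscle form Cox7a1. Cox7b averaged 84.1 FPKM against 0.150 FPKM for Cox7b2. Cox8a had the highest nuclear level, 523 ± 54.7 FPKM in the controls and 538 ± 28.2 FPKM in the cKO libraries (SD, n = 3 each), while Cox8b was at most 0.256 FPKM and Cox8c was listed at 0.

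No isoform pair was called. Limma called 0 of the 16 tested nuclear complex IV genes, with 1 at an unadjusted p under 0.05 (against 22.9% of all tested genes). Cox4i1 was at 133, 140 and 141 FPKM in the controls and 132, 131 and 141 FPKM in the cKO libraries. Cox6b2, with a log2 difference of 0.64 (SE 0.30, limma adjusted p = 0.255), was at 0.494, 0.405 and 0.716 FPKM against 0.766, 0.655 and 1.33 FPKM, levels near the minimum for testing. Cox6a2 was at 5.37, 5.15 and 5.91 FPKM against 5.79, 8.45 and 3.73 FPKM, with the highest and lowest values both in cKO libraries. The gene at an unadjusted p under 0.05 was Ndufa4l2, counted with complex IV as a relative of Ndufa4, which is now placed in that complex. Ndufa4l2 is induced by low oxygen and is abundant in pericytes. It was at 2.50, 2.52 and 2.55 FPKM in the controls and 3.65, 3.07 and 4.70 FPKM in the cKO libraries, without overlap (log2 difference 0.55, SE 0.16, limma adjusted p = 0.0889). The summed level of the pericyte and smooth muscle markers was 56.6 to 63.5 FPKM in the controls and 70.5 to 73.6 FPKM in the cKO libraries, with 2 of 10 tested markers called higher and 1 lower, and their part in the Ndufa4l2 difference was not tested. Ndufa4 itself was at 44.2, 58.9 and 60.1 FPKM against 56.3, 56.2 and 56.4 FPKM.

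The nuclear genes of complex V were close to equal in both groups, in contrast to mt-Atp6. Limma called 0 of 15, and the median log2 difference was 0.02. At an unadjusted p under 0.05 there was 1, against 22.9% of all tested genes. Atp5a1 and Atp5b, the α and β subunits of the catalytic head, averaged 169 ± 7.35 and 175 ± 5.77 FPKM in the controls and 168 ± 9.43 and 177 ± 6.26 FPKM in the cKO libraries (SD, n = 3 each). Atp5g1, Atp5g2 and Atp5g3 encode the same mature c subunit, which forms the ring that turns against the mt-Atp6 protein. Atp5g3 was the most abundant, at 61.3 FPKM in the controls and 61.5 FPKM in the cKO libraries, with Atp5g1 at 5.28 and 5.30 FPKM and Atp5g2 at 1.51 and 1.48 FPKM.

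Atp5k, which encodes subunit e of the membrane part, was nearest to a call among the nuclear genes. It was at 31.2, 30.5 and 38.9 FPKM in the controls and 51.9, 42.1 and 47.4 FPKM in the cKO libraries, without overlap. The log2 difference was 0.49 (SE 0.11, limma adjusted p = 0.0502), and 5 of 19 alternatives called it, with adjusted p from 0.0240 to 0.165. Cox7a2l, which helps join complexes III and IV into supercomplexes and is no core subunit, was at 117, 125 and 124 FPKM in the controls and 105, 109 and 111 FPKM in the cKO libraries (log2 difference -0.17, SE 0.05, limma adjusted p = 0.0886, called in 2 of 19 alternatives).

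Within a library, the sum of the mitochondrial over the sum of the nuclear genes of a complex does not depend on scaling. For complex V this ratio was 27.1, 26.7 and 28.5 in the controls and 14.8, 14.0 and 13.3 in the cKO libraries. Without mt-Atp6, which leaves mt-Atp8 alone as the mitochondrial gene, it was 15.2, 14.9 and 16.0 against 13.2, 12.4 and 11.7, still without overlap. This version was chosen after seeing the data. For complex I the ratio was 12.7, 12.9 and 13.5 against 10.5, 11.2 and 10.9, and for complex III it was 10.3, 10.5 and 11.0 against 9.97, 9.91 and 9.93, both without overlap. For complex IV it was 13.9, 13.7 and 14.5 against 13.5, 13.8 and 13.6, which overlap. These ratios are descriptions and were not tested.

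**Figure D4:**
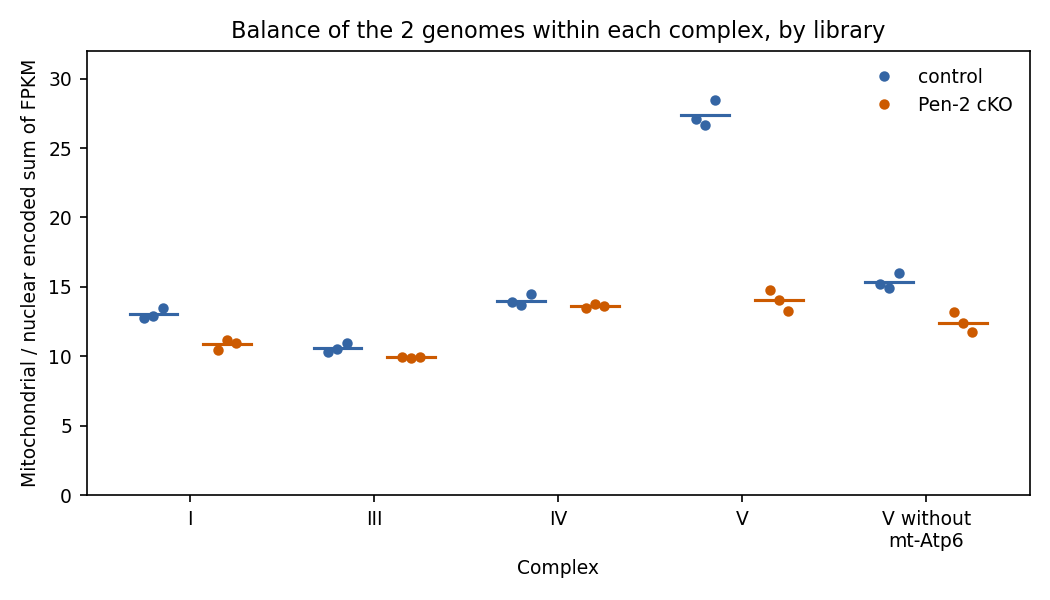
Ratio of mitochondrial to nuclear encoded summed FPKM within complexes I, III, IV and V, and within complex V without mt-Atp6, for each control and Pen-2 cKO library (points) with group means (bars). Complex V moves from 27.4 to 14.0 on average, and complex IV (14.0 and 13.6) is the one group that overlaps.

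Summed over all complexes, the 13 mitochondrial genes made up 24.2%, 24.8% and 26.0% of all FPKM in the controls and 21.2%, 21.2% and 21.3% in the cKO libraries. Without mt-Atp6 the shares were 21.2%, 21.7% and 22.7% against 20.7%, 20.7% and 20.9%, so the groups still did not overlap but lay closer together. The 81 nuclear genes summed to 4848, 5121 and 5157 FPKM in the controls and 5129, 5020 and 5277 FPKM in the cKO libraries, which overlap. As a share of all FPKM they made up 1.72%, 1.76% and 1.75% in the controls and 1.85%, 1.82% and 1.86% in the cKO libraries, which do not overlap and are higher in Pen-2 cKO. The mean total of all FPKM, which includes mt-Atp6, was lower by 10174 FPKM in Pen-2 cKO, and mt-Atp6 alone was lower by 7790 FPKM. The totals of single libraries overlapped, at 282222 to 294693 FPKM in the controls and 276530 to 283237 FPKM in the cKO libraries. The part of the total in the higher nuclear share was not tested. No share was computed with mt-Atp6 taken out of the total, and the mitochondrial shares without mt-Atp6 use the same total.

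Nuclear respiratory factor 1 (NRF1), ETS-family factors and YY1 are known to act at promoters of many nuclear respiratory genes. RefSeq promoter windows (GRCm38.p6, 300 bases around the start site) were found for 64 of the 81 tested nuclear genes. The NRF1 palindrome (GCGCA, any base, GCGC), searched on both strands, was in 17 of the 64 (26.6%), against 11.2% of the windows of all tested genes and 5.19% of all 27025 symbols. The YY1 core AAGATGGC was in 9 (14.1%, against 5.05% and 3.19%), and the ETS core CCGGAAGT in 5 (7.81%, against 8.51% and 4.31%). The other 35 windows held none of these letters. The Atp5k window is shown because this gene was nearest to a call, with capitals for its NRF1 motif.
Atp5k promoter, chr5:108434350-108434649 (-): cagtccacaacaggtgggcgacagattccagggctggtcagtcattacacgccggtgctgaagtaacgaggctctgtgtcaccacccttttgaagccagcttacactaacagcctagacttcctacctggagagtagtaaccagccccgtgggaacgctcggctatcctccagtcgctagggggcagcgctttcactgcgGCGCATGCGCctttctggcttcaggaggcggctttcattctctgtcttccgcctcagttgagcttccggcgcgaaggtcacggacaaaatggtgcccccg
A match describes the letters of the window and not a bound site.

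Genes that assemble, supply or regulate the chain were taken from lists of related genes. Of 46 tested assembly factors, limma called 2 higher (4.35%, against 3.67% of all tested genes) and 0 lower, with a median log2 difference of 0.11. At an unadjusted p under 0.05 there were 11 (23.9%, against 22.9% of all tested genes), so both shares were near the background. Timmdc1, which helps build the membrane arm of complex I, was at 6.08, 6.23 and 7.15 FPKM in the controls and 8.78, 8.49 and 9.25 FPKM in the cKO libraries (log2 difference 0.44, SE 0.09, limma adjusted p = 0.0332, called in 8 of 19 alternatives). Coa6, which delivers copper to complex IV, was at 13.5, 13.5 and 13.5 FPKM against 16.4, 15.9 and 16.0 FPKM (log2 difference 0.25, SE 0.05, limma adjusted p = 0.0418, called in 6 of 19 alternatives). Neither gene overlapped between the groups.

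Of 28 tested genes listed for mitochondrial DNA maintenance and mitochondrial RNA, limma called 2 higher (7.14%, against 3.67% of all tested genes) and 0 lower, with a median of 0.15. At an unadjusted p under 0.05 there were 7 (25%, against 22.9% of all tested genes). Tfb1m, which methylates the small ribosomal RNA of mitochondria, was at 1.99, 2.27 and 3.03 FPKM in the controls and 4.47, 4.45 and 4.13 FPKM in the cKO libraries (log2 difference 0.84, SE 0.16, limma adjusted p = 0.0273, called in 12 of 19 alternatives). Pdk1 encodes a kinase that inhibits pyruvate dehydrogenase and does not act on mitochondrial DNA, though it stands in that list. The share of 7.14% counts Pdk1, so Tfb1m was the only call among the genes the list is named for. Pdk1 was at 4.58, 4.40 and 5.08 FPKM against 7.26, 6.76 and 6.47 FPKM (log2 difference 0.53, SE 0.09, limma adjusted p = 0.0202, called in 14 of 19 alternatives).

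The lists with no call had medians near that of all tested genes or below it. Limma called 0 of 12 biogenesis regulators (median 0.09), 0 of 20 citric acid cycle and pyruvate dehydrogenase genes (median 0.00) and 0 of 20 genes of the outer membrane, import and cristae (median 0.01). The pyruvate dehydrogenase list does not include Pdk1, which was called above. Limma also called 0 of 13 further respiratory genes that the name rule misses (median 0.07). At an unadjusted p under 0.05 these 4 lists had 1, 1, 1 and 3 genes in that order (8.33%, 5%, 5% and 23.1%, against 22.9% of all tested genes). Slc25a4, the adenine nucleotide translocase that exports ATP, averaged 301 ± 10.9 FPKM in the controls and 294 ± 2.33 FPKM in the cKO libraries, and Cyc1, the cytochrome c1 of complex III, averaged 157 ± 3.31 and 156 ± 4.85 FPKM (SD, n = 3 each). Citrate synthase (Cs) averaged 124 FPKM in the controls and 120 FPKM in the cKO libraries, and Pdha1, a subunit of pyruvate dehydrogenase, averaged 91.9 and 88.4 FPKM, both with overlap. The outer membrane channel Vdac1 averaged 134 ± 3.68 FPKM in the controls and 141 ± 3.85 FPKM in the cKO libraries (SD, n = 3 each), with overlap. Its relative Vdac3 was at 103, 107 and 103 FPKM against 95.5, 101 and 102 FPKM, without overlap but not called (log2 difference -0.07, limma adjusted p = 0.457). Of the biogenesis regulators, the mitochondrial deacetylase Sirt3 averaged 19.2 FPKM in the controls and 20.2 FPKM in the cKO libraries, with overlap. The transcription factor Yy1 was at 13.4, 13.9 and 13.3 FPKM against 15.2, 14.9 and 14.8 FPKM, without overlap but not called (log2 difference 0.14, limma adjusted p = 0.179).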

How the data were processed

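Total RNA of the cortex was sequenced from libraries made, per the labels' protocols, with a VAHTS Universal V6 kit. The submitters' processing notes name the build mm10. Not given in the sources used here are the aligner, counting program, annotation release and use of strand. Per the file headers the authors deposited FPKM, in a table whose name speaks of raw counts. Low FPKM steps implied the depths, but whole fragments (to 0.01) resulted for 61.3% of values in single-transcript genes and 3.0% in other genes, so counts were not recovered.

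Values were tested with limma 3.58.1 in R 4.3.3 (two-sided, mean-variance trend, robust) on log2(FPKM + 0.1), a scale that understates changes of low genes, for genes that reached 0.5 FPKM in 3 or more libraries. The Benjamini-Hochberg adjustment ran over 14147 genes, and intervals are at 95%. The steps were tested on simulated data. The members and lists were chosen with earlier results of these data known. Named genes were all mitochondrial members, in each complex the 2 most abundant genes and the one with the largest change, isoform sets, Sdha to Sdhd, and from each list up to 4 called genes or, with none called, the 2 most abundant; others, such as Ndufb9, Ndufs1, Ndufv1 and Ndufa3, were named after their values were seen. Assignment to complexes came from general knowledge; Atp5s, Atp5sl and Cox7a2l were counted apart from the core subunits. Coordinates are those of the deposited table, counted from 1, and 70 of 97 gene ranges were identical to GENCODE M21, which gave pseudogene types and transcript lengths. Pseudogene copies were aligned to the mitochondrial genes in Biopython 1.88. Alternatives varied the pseudocount, filter, scaling, limma options, a correction for length and GC, a block on the replicate number, and which library was left out.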

Additional observations from a re-analysis of the deposited data

How the results depend on the processing

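Against 783 genes called in all, no filter on low values gave 499 and leaving out 1 library gave 220 to 842. Of the mitochondrial genes 4 were called; 2 were called with no filter, with the length and GC correction and without robust estimation, 1 without the mean-variance trend and 1 to 3 with 1 library left out, and mt-Atp6 was called in each of these fits. Of the nuclear genes 0 were called; Atp5k alone (1 gene) was called with a pseudocount of 1 FPKM, with equal sums without mt-Atp6 and with a minimum of 1 FPKM, Atp5k and Ndufa3 (2 genes) with equal sums, Cox7a2l alone (1 gene) with equal sums without mitochondrial genes and with the length and GC correction, and 0 to 1 gene with 1 library left out. The cause of these differences was not tested.

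The mitochondrial median of -0.19 became -0.27 under median-ratio scaling and ran from -0.25 (without control 1) to -0.13 (without control 3) with 1 library left out. The nuclear median of 0.04 became -0.032 under median-ratio scaling, -0.015 under upper-quartile scaling, 0.091 with equal sums and -0.037 with the length and GC correction. Relative to the median of all tested genes, which itself ran from -0.01 to 0.12, the nuclear median lay between -0.06 and 0.00 and the mitochondrial median between -0.34 and -0.17. Without mt-Atp6, the log2 change of the complex V ratio was -0.31 instead of -0.97 and that of the mitochondrial sum -0.13 instead of -0.29; these and equal sums without mt-Atp6 were chosen after seeing the data. No result changed direction while called.

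With the replicate number as a block, 456 genes were called, 2 of them mitochondrial (mt-Atp6 and mt-Nd5). Same-numbered libraries deviated together only weakly (correlations across genes of 0.06, 0.01 and 0.10), so the numbers were not taken to pair the libraries. With 3 libraries a group, small differences could not be resolved: the 95% interval of a nuclear gene had a median half-width of 0.16 on the log2 scale. FPKM near the minimum, as for Cox4i2 and Cox6b2, rest on few fragments.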
